A study of Homo sapiens with 10 samples.

Results

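The transforming growth factor-beta (TGF-beta) family ligands and antagonists described here are LEFTY1, INHBA, INHBB, INHBE, TGFB2, BMP2, BMP4, GDF15, FST and FSTL3, found on the arrays by the gene name of each spot. They are 10 of the 28090 named genes measured, with 11 of 38275 named probes. TGF-beta family proteins are secreted dimers that bind pairs of type I and type II receptor kinases, which phosphorylate SMAD proteins that then act in the nucleus. TGF-beta and activins act through SMAD2 and SMAD3 and bone morphogenetic proteins (BMPs) through SMAD1, SMAD5 and SMAD9. Secreted antagonists limit these signals: follistatin (FST) and FSTL3 bind activins, and LEFTY1, itself a divergent family member, blocks Nodal and its co-receptor. GDF15 is a distant member that many cells secrete under stress, and in prostate epithelium TGF-beta and activin are known for restraining growth.

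PC-3 cells, an androgen-insensitive human prostate cancer line, were measured as total RNA on 10 single-color arrays, 2 labelled biological replicates for each of 5 groups. The groups were cells at 0 h before any reagent and cells exposed for 24 h to DMSO (the vehicle), to 60 µM luteolin (a plant flavone), to 60 µM gefitinib (an EGF receptor kinase inhibitor) or to luteolin+gefitinib, each drug at 60 µM. All cells were of 1 line in serum-containing medium. Each drug was given at 1 dose and measured at 1 time point, and the 0 h cells differ from the DMSO cells in both time and vehicle. In RNA from bulk cells, more mRNA per cell and more cells making it cannot be told apart.

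The names of the scanner files and the sample labels disagree for the 6 drug-treated arrays. Arrays labelled luteolin are gefitinib in their file names, arrays labelled gefitinib are luteolin+gefitinib in their file names, and arrays labelled luteolin+gefitinib carry the remaining tag, read as luteolin. Groups are named below by their labels as luteolin-labelled, gefitinib-labelled and combination-labelled arrays. Each pair of arrays stays together under either naming, so a change against DMSO keeps its value and takes another treatment name. Luteolin-labelled values stand for gefitinib, gefitinib-labelled values for both drugs and combination-labelled values for luteolin if the file names hold. For comparisons between treatments and the interaction, where more than the name changes, file-name values are given separately.

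Signals are the scanner's background-subtracted processed signal in arbitrary units, and changes are differences of log2 signal after dividing each array by the 75th percentile of its non-control spots. That percentile was 1177 to 1402 on the 0 h arrays, 1283 and 1349.9 with DMSO, 1041 and 1173 on the luteolin-labelled, 628.4 and 650.7 on the gefitinib-labelled and 539.8 and 864.6 on the combination-labelled arrays. Relative to it, the median of all genes tested lay 0.08, 0.22 and 0.16 (log2) above DMSO in the luteolin-, gefitinib- and combination-labelled groups. The arrays lay on 3 slides, each holding more than 1 group, and differences within a slide are given as a check. Between 63.4% and 70.4% of probes were well above background, the scanner's test of a spot against its local background. Of the epithelial markers, 5 of 5 (KRT8, KRT18, KRT19, EPCAM, CDH1) were well above background on 10 of 10 arrays. KLK3 and TMPRSS2, genes of prostate epithelium, were so on 10 of 10. Markers of other cells were mixed. Of leukocyte markers, CD14 and CD3E were well above background on 10 arrays and PTPRC on 0. Of endothelial markers, PECAM1 was so on 10, KDR on 9 and CDH5 and VWF on 1 each, and of fibroblast markers, COL1A1 and COL3A1 on 9, LUM on 8, COL1A2 on 2 and PDGFRB on 0. Their part in the results was not tested.

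A gene was called where its limma adjusted p (Benjamini-Hochberg over all probes tested) was under 0.05 and its log2 change was at least 1 in size. Of the 10 genes, 8 passed the filter, which asked that some group have the probe well above background on each of its arrays. LEFTY1 passed only through the drug-treated groups. INHBE, which encodes the activin beta E subunit, had signals of 4.44 to 13.2 and stood well above background on 0 of 10 arrays. BMP2, a bone-inducing ligand, was well above background on 1 of 10 arrays, a combination-labelled array with a signal of 18.21, and its other signals ranged from 3.56 to 18.15. Neither gene was tested, and no change is given for them.

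The promoters of 7 of the 10 genes were in the RefSeq table given for GRCh38.p14, which spans 250 bases before to 50 bases after each start. Those of INHBA and INHBB, the activin beta subunits that moved apart, and of GDF15 and FST, which rose in the same arrays as LEFTY1 in at least 1 group, are shown upstream of the start, 5′ to 3′ on the strand of the gene. Capitals mark matches to 6 motifs searched, where N stands for any base. TATAAA was searched on the strand of the gene. On both strands the search took TGACGTCA (the cyclic AMP response element), the shorter site TGACG within it and TGANTCA (an AP-1-like site). Also searched on both strands were TGATGNAA (a C/EBP-ATF composite) and GTCTAGAC (a SMAD palindrome).
INHBA, chr7:41703091-41703340, minus strand: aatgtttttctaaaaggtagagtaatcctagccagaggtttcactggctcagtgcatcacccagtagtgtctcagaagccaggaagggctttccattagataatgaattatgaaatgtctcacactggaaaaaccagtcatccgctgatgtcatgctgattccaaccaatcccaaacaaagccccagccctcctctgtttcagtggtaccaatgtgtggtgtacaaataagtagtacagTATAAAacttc
INHBB, chr2:120345886-120346135, plus strand: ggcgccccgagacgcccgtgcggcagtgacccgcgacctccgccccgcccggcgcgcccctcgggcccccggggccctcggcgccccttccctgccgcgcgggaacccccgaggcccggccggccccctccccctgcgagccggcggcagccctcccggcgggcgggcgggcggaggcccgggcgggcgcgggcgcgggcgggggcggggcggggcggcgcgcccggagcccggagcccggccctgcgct
GDF15, chr19:18385908-18386157, plus strand: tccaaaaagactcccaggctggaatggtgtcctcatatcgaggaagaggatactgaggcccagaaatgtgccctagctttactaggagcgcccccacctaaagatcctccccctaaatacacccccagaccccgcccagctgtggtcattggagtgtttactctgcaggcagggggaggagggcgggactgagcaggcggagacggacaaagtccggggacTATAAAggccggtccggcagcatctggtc
FST, chr5:53480379-53480628, plus strand: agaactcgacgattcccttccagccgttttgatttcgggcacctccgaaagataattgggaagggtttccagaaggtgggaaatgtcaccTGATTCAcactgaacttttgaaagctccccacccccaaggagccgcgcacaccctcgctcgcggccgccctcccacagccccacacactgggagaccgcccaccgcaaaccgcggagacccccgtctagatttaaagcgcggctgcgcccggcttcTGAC

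The paired activin subunit promoters differed in base composition. The INHBB window was 88.7% G or C with 58 CpG dinucleotides in its 300 bases, and the INHBA window was 43.3% G or C with 1 CpG. TATAAA stood at base -11 of INHBA and at base -29 of GDF15 and TGFB2, counted from the start, and in 7.33% of the 35116 promoters of this length. FST held TGATTCA at base -160, a match to the AP-1-like TGANTCA, which is in 7.71% of promoters. It also held TGACG at base -4, which runs past the start and is in 24.6%. TGFB2 held the same short site at base -70. TGACGTCA, TGATGNAA and GTCTAGAC, in 1.85%, 3.62% and 0.202% of promoters, had no match in these windows, nor did any of the 6 motifs in those of INHBB, BMP4 (3 starts) and FSTL3.

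LEFTY1 was the member with the largest change in the combination-labelled group, where it rose from below background on the control arrays. Its signal was 22.21 and 13.39 at 0 h, 14.2 and 11.79 with DMSO, 53.35 and 115.7 on the luteolin-labelled arrays, 154.2 and 46.83 on the gefitinib-labelled arrays and 815.1 and 644.4 on the combination-labelled arrays. None of the 4 control arrays was well above background and all 6 drug-treated arrays were, the luteolin- and gefitinib-labelled arrays overlapped, and the combination-labelled arrays lay above every other array.

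Because LEFTY1 was not well above background on the DMSO arrays, its folds are lower limits, set against the lowest signal well above background on each array or the probe's own signal where that was higher. Here and below, the adjusted p beside such a limit tests the fitted change with every signal left as it was, not the limit. Calls rest on that fitted change too. LEFTY1 was at least 3.96-fold higher than with DMSO on the luteolin-labelled arrays (limma adjusted p = 0.00811), at least 7.4-fold higher on the gefitinib-labelled arrays (adjusted p = 0.00143) and at least 59.1-fold higher on the combination-labelled arrays (adjusted p = 0.000558). Against 0 h the limits were 4.63-fold (adjusted p = 0.0135), 8.66-fold (adjusted p = 0.00234) and 69.1-fold (adjusted p = 0.00056) in the same order. Within slides, with DMSO arrays set in the same way, LEFTY1 stood above DMSO by log2 differences of at least 1.29 and 2.68 for luteolin-labelled, 3.67 for gefitinib-labelled (1 slide) and 5.66 and 6.11 for combination-labelled arrays. The luteolin-labelled rise is the least firm of these: without DMSO replicate 2 its adjusted p was 0.053, without luteolin replicate 2 it was 0.0632, and with normexp background correction the log2 change was 0.996. The rise of LEFTY1 over 0 h in that group also lost its call without 0h replicate 2 (adjusted p = 0.0733), without luteolin replicate 2 (adjusted p = 0.0981), with slide as a block (adjusted p = 0.0649) and under normexp (log2 change 0.90).

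Between the drug-treated groups, LEFTY1 was 14.9-fold higher on the combination-labelled than on the luteolin-labelled arrays (log2 change 3.90 ± 0.55 SE, limma adjusted p = 0.00161) and 7.98-fold higher than on the gefitinib-labelled arrays (3.0 ± 0.55, adjusted p = 0.00295). The gefitinib-labelled minus luteolin-labelled difference was 0.90 with a 95% interval of -0.37 to 2.17 (adjusted p = 0.188), so the order of these neighbours was not resolved; without gefitinib replicate 2 it was 1.74 (adjusted p = 0.0214). By file name, the highest pair of LEFTY1 signals (815.1 and 644.4) belongs to luteolin, the pair of 53.35 and 115.7 to gefitinib and the pair of 154.2 and 46.83 to both drugs.

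LEFTY2, the neighbouring paralog with the same Nodal-blocking role, and NODAL, the ligand that both LEFTY proteins inhibit, stayed dim. LEFTY2 signals ranged from 3.74 to 6.59 and NODAL signals from 5.11 to 16.6, and each was well above background on 0 of 10 arrays. LEFTY1 and LEFTY2 transcripts are closely alike and a probe may bind both, which was not tested; the LEFTY2 probe itself gave no measured signal on the arrays where the LEFTY1 probe rose. In hg18 coordinates the LEFTY1 probe lies on the minus strand at chr1:224140731-224140790 and the LEFTY2 probe at chr1:224191697-224191756.

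**Figure D1:**
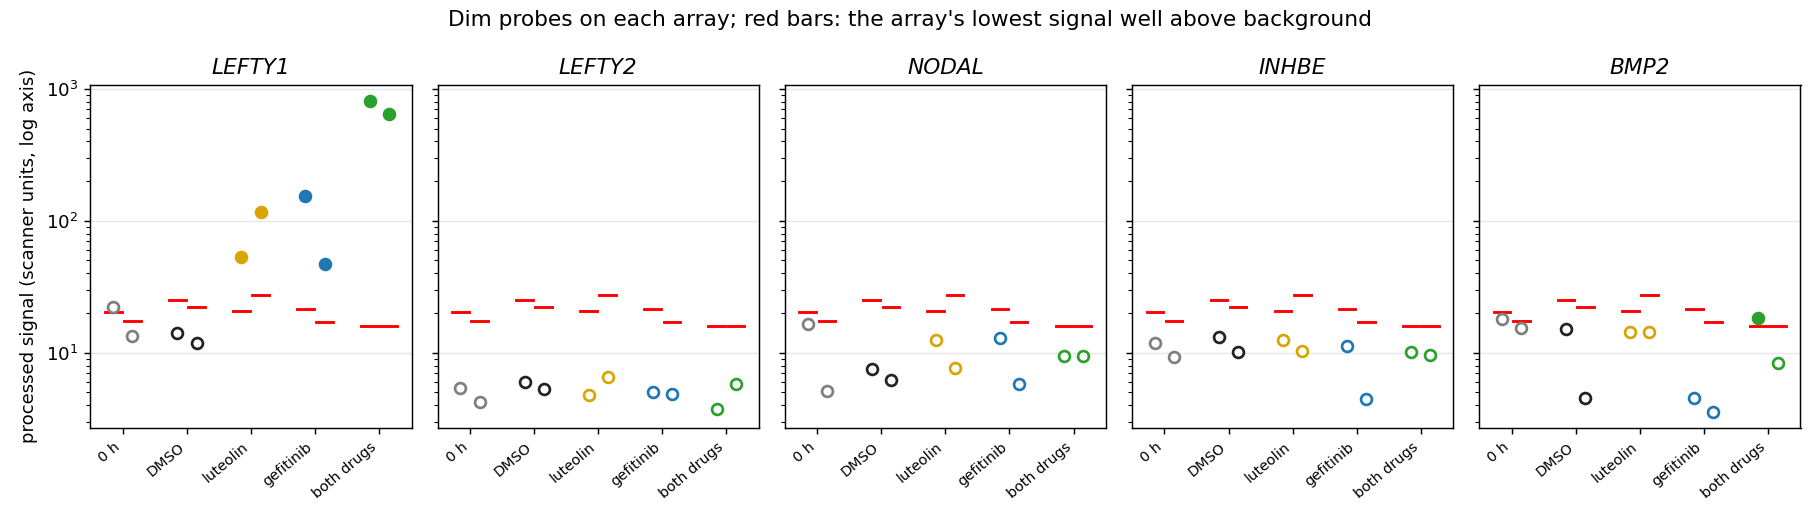
Processed signal (scanner units, log axis) of LEFTY1, LEFTY2, NODAL, INHBE and BMP2 on each of 10 arrays, grouped by sample label, with filled points for arrays where the probe was well above background, open points where it was not, and red bars for the dimmest signal of that array that was well above background. LEFTY1 is filled on the 6 drug-treated arrays, from 46.83 to 815.1, and BMP2 on 1 array, while LEFTY2, NODAL and INHBE are open throughout.

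The activin subunits INHBA and INHBB went separate ways. INHBA encodes the beta A subunit, whose dimer is activin A, and INHBB the beta B subunit of activin B. After scaling, INHBA rose about 3-fold on the gefitinib- and combination-labelled arrays. INHBB fell 10.0-fold on the luteolin-labelled and 3.56-fold on the combination-labelled arrays. Unscaled, the mean INHBA signal was 5188 with DMSO, 7857 on the gefitinib-labelled and 8895 on the combination-labelled arrays. The size of the INHBA rise thus depends on the scaling percentile, which was lower in these groups than with DMSO.

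INHBA signal was 5309 and 4831 at 0 h, 5902 and 4474 with DMSO, 5986 and 3450 on the luteolin-labelled, 9693 and 6021 on the gefitinib-labelled and 10570 and 7220 on the combination-labelled arrays. After scaling, INHBA log2 values of the gefitinib-labelled (3.90 and 3.26) and combination-labelled arrays (3.61 and 3.74) lay above all 6 others, which ran from 1.73 to 2.35. Its log2 change against DMSO was 1.61 ± 0.27 SE on the gefitinib-labelled arrays (3.06-fold, limma adjusted p = 0.00238) and 1.71 ± 0.27 on the combination-labelled arrays (3.28-fold, adjusted p = 0.00315). On the luteolin-labelled arrays the change in INHBA was 0.07, with a 95% interval of -0.55 to 0.70 (adjusted p = 0.869). The gefitinib- and combination-labelled levels of INHBA differed by 0.10 (interval -0.53 to 0.72, adjusted p = 0.781). Within slides INHBA stood 1.77 above DMSO for gefitinib-labelled and 1.48 and 1.94 for combination-labelled arrays. By file name, the raised INHBA groups are both drugs and luteolin.

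INHBB signal was 57260 and 52170 at 0 h, 50670 and 64480 with DMSO, 5189 and 4428 on the luteolin-labelled, 14030 and 15610 on the gefitinib-labelled and 9974 and 6958 on the combination-labelled arrays. The 4 control arrays were highest and the luteolin-labelled pair lowest after scaling, and no pair of drug-treated arrays overlapped another. INHBB fell by 3.32 on the log2 scale on the luteolin-labelled arrays (SE 0.18, limma adjusted p = 0.000115) and fell by 1.83 on the combination-labelled arrays (adjusted p = 0.000873). On the gefitinib-labelled arrays the change in INHBB was -0.91 (adjusted p = 0.0048), short of the 2-fold minimum; it was -1.65 with quantile normalization and -1.02 with normexp, both called. INHBB was 5.34-fold higher on the gefitinib-labelled than on the luteolin-labelled arrays (adjusted p = 6.76e-05) and 2.81-fold higher on the combination-labelled than on the luteolin-labelled arrays (adjusted p = 0.000955). Within slides its differences from DMSO were -3.085 and -3.563 for luteolin-labelled, -0.80 for gefitinib-labelled and -1.70 and -1.96 for combination-labelled arrays. By file name, the deepest fall of INHBB is with gefitinib, the next with luteolin and the smallest with both drugs.

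Since a ratio of 2 probes within an array does not depend on how the array was scaled, the change of INHBA minus the change of INHBB was also taken on each array, against the DMSO mean. This difference (log2) was 0.04 and 0.04 at 0 h, 3.68 and 3.12 on the luteolin-labelled, 2.94 and 2.10 on the gefitinib-labelled and 3.56 and 3.53 on the combination-labelled arrays. The 2 DMSO arrays stood at 0.37 and -0.37, so every drug-treated array lay above every control array.

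TGFB2 encodes the TGF-beta 2 ligand. Its signal on the brighter of its probes was 849.4 and 569 at 0 h, 608.3 and 575.5 with DMSO, 308.2 and 224 on the luteolin-labelled, 404.9 and 295.7 on the gefitinib-labelled and 727.1 and 312.7 on the combination-labelled arrays. After scaling, the luteolin-labelled pair (log2 values of -1.93 and -2.22) was the lowest and overlapped no other group. TGFB2 fell on the luteolin-labelled arrays against 0 h, by 1.19 on the log2 scale (limma adjusted p = 0.00776), and its change against DMSO was -0.92 (adjusted p = 0.0246), short of the 2-fold minimum. Within slides the latter was -0.78 and -1.06. The fall of TGFB2 against 0 h lost its call without 0h replicate 1 (adjusted p = 0.0629) or luteolin replicate 2 (adjusted p = 0.0632).

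TGFB2 was 2.28-fold higher on the gefitinib-labelled than on the luteolin-labelled arrays (limma adjusted p = 0.00335; log2 change 0.98 without gefitinib replicate 1) and 2.94-fold higher on the combination-labelled than on the luteolin-labelled arrays (adjusted p = 0.00216). The dimmer TGFB2 probe gave the same calls for these differences, with log2 changes of 1.25 (adjusted p = 0.00459) and 1.61 (adjusted p = 0.00301). The probes disagreed on DMSO against 0 h in size, at -0.27 and -0.95, neither called, and the dimmer probe changed by -1.65 on the luteolin-labelled arrays against 0 h (adjusted p = 0.00326).

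BMP4, a ligand of the BMP branch, changed on the gefitinib-labelled arrays and in no other comparison with a control. Its signal was 242.1 and 205.2 at 0 h, 248.8 and 193.1 with DMSO, 283.9 and 183.6 on the luteolin-labelled, 8.83 and 5.77 on the gefitinib-labelled and 187.9 and 66.29 on the combination-labelled arrays. The gefitinib-labelled arrays were the only 2 not well above background for BMP4, and the other 4 groups overlapped. BMP4 was at least 5.52-fold lower on the gefitinib-labelled arrays than with DMSO (limma adjusted p = 0.000115) and at least 5.76-fold lower than at 0 h (adjusted p = 9.81e-05). It was at least 6.85-fold lower there than on the luteolin-labelled arrays (adjusted p = 6.05e-05), and at least 5.42-fold higher on the combination-labelled than on the gefitinib-labelled arrays (adjusted p = 7.86e-05). Changes against DMSO elsewhere were 0.31 (95% interval -0.40 to 1.02) on the luteolin-labelled and -0.03 (interval -0.74 to 0.68) on the combination-labelled arrays. Within the slide that holds both groups, BMP4 on the gefitinib-labelled array differed from DMSO by -2.475 (log2) with the dim array set to its lowest signal well above background, which is a lower limit of the fall. By file name, the pair of arrays that lost BMP4 signal is the pair given both drugs.

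GDF15 rose 6.46-fold on the luteolin-labelled and 5.64-fold on the combination-labelled arrays and was unresolved from DMSO on the gefitinib-labelled arrays. Its signal was 22430 and 29580 at 0 h, 25470 and 35900 with DMSO, 134500 and 199900 on the luteolin-labelled, 16920 and 11920 on the gefitinib-labelled and 100100 and 78390 on the combination-labelled arrays. After scaling, the luteolin- and combination-labelled arrays (log2 values of 6.84 to 7.59) overlapped each other and lay above the other 6 (4.0 to 4.81), and the gefitinib-labelled arrays overlapped both control groups. The log2 change against DMSO was 2.69 ± 0.34 SE (limma adjusted p = 0.00147) on the luteolin-labelled, 2.50 ± 0.34 (adjusted p = 0.0019) on the combination-labelled and -0.05 (95% interval -0.82 to 0.73, adjusted p = 0.913) on the gefitinib-labelled arrays. GDF15 was 6.68-fold lower on the gefitinib-labelled than on the luteolin-labelled arrays (adjusted p = 0.000368), and the combination- and luteolin-labelled levels differed by -0.19 (interval -0.97 to 0.58). Within slides its log2 differences from DMSO were 2.60 and 2.78 for luteolin-labelled and 2.62 and 2.38 for combination-labelled arrays. By file name, GDF15 is raised with gefitinib and with luteolin but not with both.

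**Figure D2:**
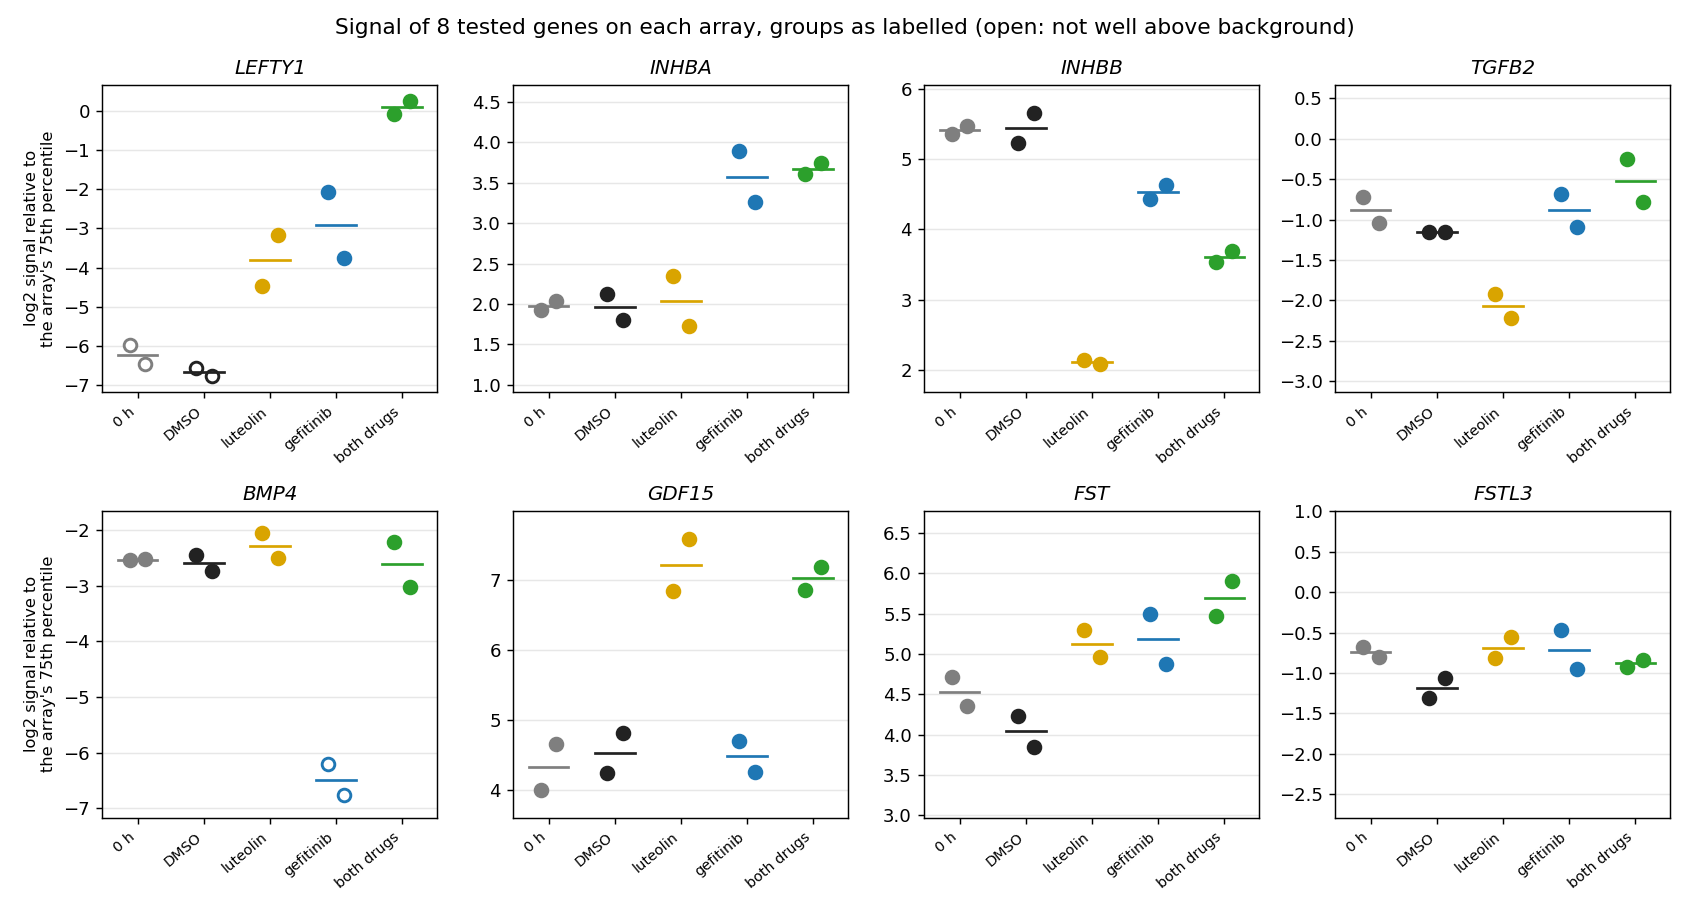
Signal of the 8 tested genes on each array, as log2 relative to the array's 75th percentile, with 1 point per array, a line at the mean of each group of 2, and open points where the probe was not well above background. Panels have separate axes, and levels are to be compared within a panel only; LEFTY1 climbs to the combination-labelled arrays, INHBB is lowest on the luteolin-labelled pair, and BMP4 is open on the gefitinib-labelled pair.

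Of the activin-binding antagonists, FST was raised in all 3 drug-treated groups against DMSO and FSTL3 was called in none. FST encodes follistatin, which holds activins away from their receptors, and its signal was 36690 and 24090 at 0 h, 25400 and 18460 with DMSO, 46000 and 32470 on the luteolin-labelled, 29230 and 18500 on the gefitinib-labelled and 38410 and 32280 on the combination-labelled arrays. Unscaled, the gefitinib-labelled FST signals overlapped those of DMSO, and after division by the 75th percentile all 6 drug-treated arrays (log2 values of 4.88 to 5.90) lay above all 4 control arrays (3.85 to 4.71). FST rose with a log2 change of 1.09 on the luteolin-labelled (limma adjusted p = 0.0218), 1.14 on the gefitinib-labelled (adjusted p = 0.00898) and 1.65 on the combination-labelled arrays (adjusted p = 0.00363). The gefitinib-labelled rise of FST was lost with quantile normalization (log2 change 0.45, adjusted p = 0.167).

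Against 0 h, FST was called only on the combination-labelled arrays (log2 change 1.16, limma adjusted p = 0.0127), and its changes on the luteolin-labelled (0.60, adjusted p = 0.137) and gefitinib-labelled arrays (0.65, adjusted p = 0.0743) were not called. The DMSO level of FST stood -0.49 from that at 0 h (interval -1.12 to 0.13), also not called. The rise of FST over DMSO rested on single arrays in the luteolin-labelled group, with adjusted p-values of 0.0577, 0.145, 0.108 and 0.0651 without DMSO replicate 1, DMSO replicate 2, luteolin replicate 1 and luteolin replicate 2. In the gefitinib-labelled group it was lost without gefitinib replicate 1 (adjusted p = 0.0548) or DMSO replicate 2 (adjusted p = 0.0669), and against 0 h in the combination-labelled group without 0h replicate 2 (adjusted p = 0.0798), without luteolin+gefitinib replicate 2 (adjusted p = 0.0713), with slide as a block (adjusted p = 0.0509) or with quantile normalization (adjusted p = 0.0796). Within slides FST stood 1.06 and 1.12 above DMSO for luteolin-labelled, 1.26 for gefitinib-labelled and 1.24 and 2.05 for combination-labelled arrays.

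FSTL3, the follistatin-like antagonist of activin and myostatin, had signals of 874 and 676.5 at 0 h, 544.4 and 614 with DMSO, 664.9 and 706.1 on the luteolin-labelled, 468.8 and 323.4 on the gefitinib-labelled and 454.8 and 301.7 on the combination-labelled arrays. After scaling the 5 groups lay within 0.50 of each other, with changes against DMSO of 0.50 (95% interval 0.03 to 0.96), 0.47 (0.01 to 0.94) and 0.30 (-0.16 to 0.77), and adjusted p-values of 0.111, 0.0808 and 0.257. The upper ends of these intervals are all below a 2-fold change.

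Counted over the members tested, 4 of 8 were called on the luteolin-labelled arrays against DMSO: LEFTY1, GDF15 and FST rose and INHBB fell, where 7.22% of the 19718 genes tested rose and 6.17% fell. On the gefitinib-labelled arrays LEFTY1, INHBA and FST rose and BMP4 fell, beside 15.6% and 14.3% of all genes. On the combination-labelled arrays LEFTY1, GDF15, INHBA and FST rose and INHBB fell, beside 12.1% and 7.69%. The median log2 change of the 8 was 0.40, 0.37 and 1.14 in these groups, beside 0.08, 0.22 and 0.16 for all genes tested; the filter admitted LEFTY1 through the groups in which it was high.

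Against 0 h, LEFTY1 and GDF15 rose and INHBB and TGFB2 fell on the luteolin-labelled arrays, beside 8.26% and 7.85% of all genes. LEFTY1 and INHBA rose and BMP4 fell on the gefitinib-labelled arrays (14.5% and 14.5%), and LEFTY1, GDF15, INHBA and FST rose and INHBB fell on the combination-labelled arrays (11.5% and 8.32%). The comparisons with DMSO share the DMSO arrays, and those with 0 h the 0 h arrays. DMSO against 0 h called 0 of the 8 members by limma, and 0 had an unadjusted p under 0.05, beside 0.0355% of all genes called. These counts take the brightest probe of each gene. The dimmer TGFB2 probe, not counted, changed by -0.95 (limma unadjusted p = 0.00714, adjusted p = 0.539). The methods' t-test at an unadjusted p under 0.05 called 1, TGFB2. Between drug-treated groups, 5 of 8 differed for gefitinib- against luteolin-labelled (INHBA, INHBB and TGFB2 higher, GDF15 and BMP4 lower; 36.6% of all genes), 4 for combination- against luteolin-labelled (LEFTY1, INHBA, INHBB and TGFB2 higher; 21.0%) and 3 for combination- against gefitinib-labelled arrays (LEFTY1, GDF15 and BMP4 higher; 27.0%).

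**Figure D3:**
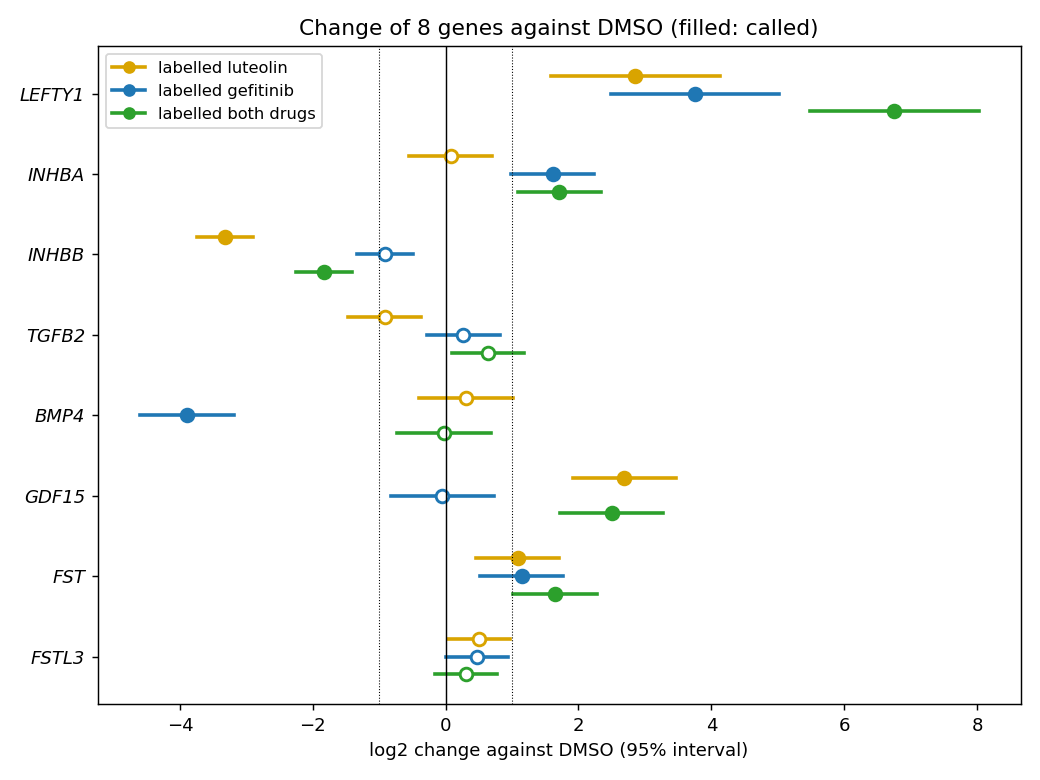
Log2 change against DMSO of the 8 tested genes with 95% intervals of the limma fit, for the luteolin-, gefitinib- and combination-labelled arrays; filled points were called and dotted lines mark a 2-fold change. FST and LEFTY1 are filled in 3 of 3 groups, and the values of LEFTY1 and of BMP4 on the gefitinib-labelled arrays are not folds, since a group compared was not well above background.

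Whether the drugs together departed from the sum of their separate changes on the log2 scale was tested as an interaction, called at the adjusted p alone. As labelled, 3 of the 8 departed, beside 34.2% of all genes: BMP4 by 3.56 (95% interval 2.56 to 4.56, limma adjusted p = 0.00089), INHBB by 2.40 (1.80 to 3.00, adjusted p = 0.000609) and TGFB2 by 1.29 (0.52 to 2.06, adjusted p = 0.0201). For BMP4 the sum of the single drugs was a loss that the combination-labelled arrays did not have. Because BMP4 was not well above background on the gefitinib-labelled arrays, the size of its departure is not a measured fold. The TGFB2 value is that of the brighter probe. Its dimmer probe gave 1.06 (limma adjusted p = 0.0621), which was not called. For INHBB the combination-labelled fall was smaller than the luteolin-labelled fall. The TGFB2 departure lost its call without DMSO replicate 1 (adjusted p = 0.0635), DMSO replicate 2 (adjusted p = 0.0636), luteolin replicate 2 (adjusted p = 0.0702) or gefitinib replicate 2 (adjusted p = 0.0586).

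LEFTY1 departed from additivity by 0.14 (interval -1.65 to 1.94, limma adjusted p = 0.899), and by 1.10 with normexp background correction (adjusted p = 0.0403). Since LEFTY1 was not well above background with DMSO, neither size is a measured departure under either naming. GDF15 departed by -0.15 (interval -1.24 to 0.95, adjusted p = 0.83), INHBA by 0.02 (-0.86 to 0.91), FST by -0.58 (-1.47 to 0.30) and FSTL3 by -0.66 (-1.32 to -0.01, adjusted p = 0.109; without gefitinib replicate 2, -0.91, adjusted p = 0.0422).

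With the treatments of the file names, 5 of the 8 departed, beside 44.3% of all genes: LEFTY1 by -5.85 (adjusted p = 0.000787), GDF15 by -5.24 (adjusted p = 0.000227), BMP4 by -4.18 (adjusted p = 0.000321), FST by -1.59 (adjusted p = 0.0108) and INHBB by 4.25 (adjusted p = 0.000121). The departure of INHBB kept its direction under both namings and that of BMP4 turned. The labels and the file names do not by themselves settle which treatment a pair of arrays had.

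**Figure D4:**
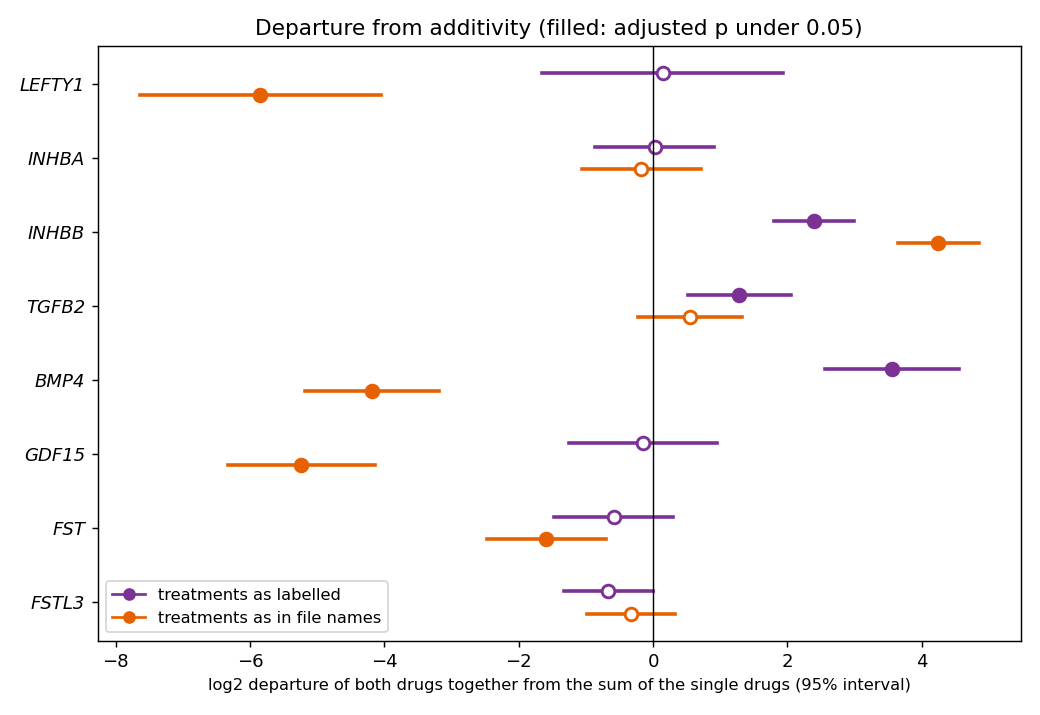
Departure of the change with both drugs from the sum of the changes with single drugs (log2, with 95% intervals) for the 8 tested genes, with treatments as labelled (purple) and as in the file names (orange); filled points have an adjusted p under 0.05. LEFTY1 and GDF15 lie near 0 as labelled and below -5 by file name, and BMP4 changes sign; the sizes for these LEFTY1 and BMP4 points rest on a group not well above background.

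The rest of the pathway was read from lists of other family members, antagonists, receptors, SMADs and responsive genes. Of 25 other ligands, 11 were well above background in enough arrays to be tested. The counts in this and the next lists stand beside the shares of all genes raised and lowered against DMSO given above, and are named by label. INHA, the alpha subunit that turns activin into inhibin, was called with log2 changes of 1.28 (limma adjusted p = 0.0376) on the luteolin-labelled and 1.53 (adjusted p = 0.00957) on the gefitinib-labelled arrays. BMP3, a non-canonical BMP that opposes bone formation, was at least 5.33-fold higher than with DMSO on the luteolin-labelled arrays (adjusted p = 0.00204). AMH, the anti-Mullerian hormone, and GDF1, a Nodal partner, rose after scaling on the gefitinib-labelled (1.90 and 1.47) and combination-labelled arrays (1.84 and 1.28). Unscaled, GDF1 signals were 72.57 and 61.77 with DMSO, 98.25 and 82.92 on the gefitinib-labelled and 83.94 and 85.3 on the combination-labelled arrays. INHA signals were 32.94 and 31.79 with DMSO and 37.17 and 55.72 on the gefitinib-labelled arrays. The sizes of these GDF1 and INHA rises thus depend on the scaling percentile, which was lower in these groups than with DMSO. In all, 2 ligands rose on the luteolin-labelled arrays, 5 on the gefitinib-labelled and 2 on the combination-labelled arrays, where 1 fell.

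Of 19 other extracellular antagonists, 12 were tested. WFIKKN2, a binder of myostatin and GDF11, was at least 16.5-fold and at least 16.3-fold higher than with DMSO on the gefitinib- and combination-labelled arrays (limma adjusted p = 0.000803 and 0.00163), the same groups in which INHBA rose. SOST, known as a BMP and WNT antagonist of bone, was at least 7.11-fold and at least 2.82-fold higher there (adjusted p = 0.000224 and 0.00185). Both genes were well above background in these groups alone and passed the filter only through them, as BMP3 did through the luteolin-labelled arrays. GREM1, a BMP antagonist, was lowered in all 3 groups, by at least 2.18-fold on the luteolin-labelled (adjusted p = 0.00122), at least 1.56-fold on the gefitinib-labelled (adjusted p = 0.0193) and at least 2.02-fold on the combination-labelled arrays (adjusted p = 0.00199). WFIKKN1, a relative of WFIKKN2, rose on the combination-labelled arrays alone of the 3 (log2 change 1.35, adjusted p = 0.024).

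Among 13 of 16 receptors tested, BAMBI, a decoy that lacks the kinase domain, rose in all 3 groups (1.23, 1.23 and 2.02 on the log2 scale, in the order luteolin-, gefitinib- and combination-labelled, limma adjusted p = 0.0291, 0.0153 and 0.00356). ACVR2A, a type II activin receptor, was at least 2.81-fold lower on the gefitinib-labelled arrays (adjusted p = 0.000897). TGFBR3, the co-receptor betaglycan, had log2 changes of -1.29 there and -1.42 on the combination-labelled arrays, both called, and BMPR1B, a type I BMP receptor, was called lower on the combination-labelled arrays (adjusted p = 0.0205), where it was well above background on 1 of 2 arrays, so no size is given. Of the 8 SMADs, SMAD6, an inhibitory SMAD of the BMP branch, fell in all 3 groups (log2 changes of -1.17, -1.56 and -1.52), SMAD3 fell by 1.79 on the luteolin-labelled arrays and SMAD1 fell by 1.20 on the gefitinib-labelled arrays.

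Of 13 SMAD-responsive genes tested, 1 rose and 5 fell on the luteolin-labelled arrays (7.22% and 6.17% of all genes), 3 rose and 6 fell on the gefitinib-labelled arrays (15.6% and 14.3%), and 2 rose and 5 fell on the combination-labelled arrays (12.1% and 7.69%). CTGF, a matrix-associated TGF-beta target, fell in all 3 groups (log2 changes of -2.93, -1.63 and -1.63), and PMEPA1, a feedback inhibitor of TGF-beta signalling, rose by 2.0 on the gefitinib-labelled and 2.84 on the combination-labelled arrays. ID1, a direct target of BMP signalling, had signals of 53920 and 53670 with DMSO, 58900 and 32000 on the luteolin-labelled, 6152 and 2661 on the gefitinib-labelled and 32500 and 23500 on the combination-labelled arrays. ID1 fell by 2.69 on the gefitinib-labelled arrays (limma adjusted p = 0.000976), the arrays on which BMP4 was not well above background. The changes of ID1 were -0.06 and -0.02 on the luteolin- and combination-labelled arrays. The interaction for ID1 was 2.73 (95% interval 1.56 to 3.91, limma adjusted p = 0.00508), and -2.62 with the file-name treatments (adjusted p = 0.00413). ID1 and BMP4 were each low on the gefitinib-labelled pair alone, so renaming that pair by itself turns the sign of either interaction. A link between these genes was not tested. ID2, a further BMP target, fell by 2.27 on the gefitinib-labelled arrays (adjusted p = 0.000538).

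GDF15 is known as a target of the stress factors ATF4 and CHOP, and 10 other targets of these were measured beside it. On the luteolin-labelled arrays 9 of 10 rose and 0 fell, with TRIB3 at 3.11, DDIT3 (CHOP itself) at 2.86, DDIT4 at 2.23 and ATF3 at 1.89. On the combination-labelled arrays, where GDF15 rose about as much, 4 of 10 rose: DDIT4 by 2.06, ATF3 by 2.60, CTH and VLDLR, while the changes of TRIB3 (0.34, limma adjusted p = 0.419) and DDIT3 (-0.23, adjusted p = 0.73) were not called. On the gefitinib-labelled arrays 2 rose, ATF3 by 3.14 and DDIT4 by 1.44, and VLDLR was at least 1.39-fold lower. INHBE, described as another gene of this stress response, was not well above background in any of these groups.

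**Figure D5:**
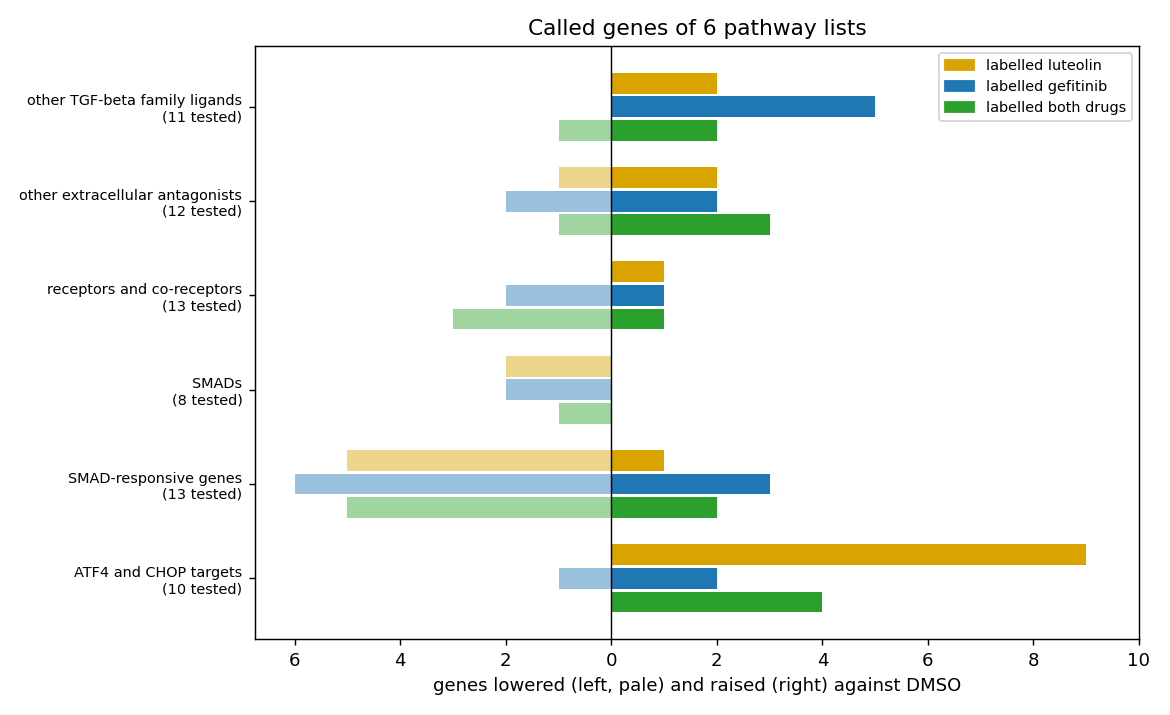
Numbers of genes called against DMSO in each of 6 pathway lists, lowered to the left (pale) and raised to the right, for the luteolin-, gefitinib- and combination-labelled arrays; the number of genes tested stands beside each list. The ATF4 and CHOP targets reach 9 of 10 raised on the luteolin-labelled arrays, and SMAD-responsive genes show 5 to 6 lowered in each group.

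The genes most like LEFTY1 over the 10 arrays, by Pearson correlation of log2 values with dim values set to the lowest well above background, were TTC18 (r = 0.993), MTX3 (0.992), TSSK4 (0.992), IGFALS (0.992) and LOC286044 (0.986). MTX3 was well above background on 4 of the 10 arrays and TSSK4 and IGFALS on 5, so that these share with LEFTY1 a floor on many arrays. For GDF15 they were MIB1 (0.984), PDK4 (0.983), ATG13 (0.98), RESF1 (0.978) and WDR25 (0.978), each well above background on 10 of 10 arrays. These values describe 5 pairs of arrays that share their treatment and scaling, and carry no test.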

How the data were processed

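Total RNA of PC-3 cells was labelled with Cy3 and hybridised to 10 single-color Agilent Whole Human Genome arrays. The authors deposited scanner files whose intensities are the processed signal of Agilent Feature Extraction (version 10.7.3.1 per the file headers), with the background subtracted within the array and no normalization between arrays. Probe positions are on hg18.

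Groups follow the sample labels. The computing was done in R 4.3.3 with limma 3.58.1 and the reader data.table (version 1.17.8). Control and outlier spots were left out, and log2 signals were taken relative to the array's 75th percentile. Of 41000 probes, 28776 were kept because some group had them well above background on each of its arrays. For a gene with several probes the brightest on average was taken. A limma model of the 5 groups was fitted to all 10 arrays (5 residual and 3.36 prior degrees of freedom), with Benjamini-Hochberg adjustment over all probes kept and a call needed a 2-fold change or more with its adjusted p under 0.05. The 2 arrays per group limit the precision. Duplicates were labelled biological replicates. Promoters came from RefSeq (GRCh38.p14).

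The members and lists were chosen with earlier results of these data known. Genes named are the members, LEFTY2 and NODAL, up to 4 called genes with the largest change in each list, and the 5 genes most correlated with LEFTY1 and with GDF15. Alternatives were normexp background correction (offset 50), quantile normalization, no filter or a filter on all arrays, the series value table, a block for replicate or for slide, fits of the compared groups alone, no minimum fold, the median over probes, the file-name treatments, the methods' t-test and leaving out each array. Some cell type markers are not reported here.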

Additional observations from a re-analysis of the deposited data

How the results depend on the processing

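The counts of members called against DMSO were 4, 4 and 5 for the luteolin-, gefitinib- and combination-labelled arrays. With probes well above background on all arrays, LEFTY1 and BMP4 were not fitted, and the counts fell to 2 for gefitinib-labelled against DMSO, 1 against 0 h and 1 for combination- against gefitinib-labelled. The methods' t-test, unadjusted, called 1 for luteolin-labelled and 1 for gefitinib-labelled against DMSO, 1 and 1 against 0 h, and 1 for DMSO against 0 h; after Benjamini-Hochberg adjustment it called 0 in each of these comparisons and 0 for combination-labelled arrays against DMSO and 0 h. Leaving out 1 array gave 2 to 4 for luteolin-labelled against DMSO and 2 to 4 against 0 h, with the lone array of a group assumed to vary like the others, and the 2 came without DMSO replicate 2 (against DMSO) or luteolin replicate 2 (against either). Replicate number as a block left the counts at 4, 4 and 5 against DMSO and at 3 for the interaction, and changed no call. Same-numbered arrays deviated together with correlations from -0.098 to 0.293, so the numbers were not taken to pair the arrays. Scaling moved the median of all genes against DMSO: it was 0.11, 0.37 and 0.30 with normexp and 0.04, 0.04 and 0.00 with quantile normalization.

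Every reversal came from the file-name treatments, under which a treatment name moves to another pair of arrays. Against DMSO, GDF15 was 2.69 and BMP4 0.31 for gefitinib, and GDF15 -0.049 for both drugs. Against 0 h, TGFB2 was 0.37 for luteolin and -1.19 for gefitinib, and BMP4 0.25 for gefitinib. For gefitinib against luteolin, LEFTY1 was -3.90, INHBA -1.64, INHBB -1.49, GDF15 0.19, BMP4 0.34 and TGFB2 -1.55. For both drugs against luteolin, LEFTY1 was -2.997, INHBA -0.10 and TGFB2 -0.37, and against gefitinib INHBB was 2.42, GDF15 -2.74 and BMP4 -4.21. The interaction was -5.85 for LEFTY1 and -4.18 for BMP4. The counts became 3 for both drugs against 0 h, 5 for both drugs against gefitinib and 5 for the interaction.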
